A study of Mus musculus with 8 samples.

Results

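The dystrophin-associated complex was examined in fibro/adipogenic progenitors (FAPs) of dystrophic muscle through 9 of its genes, out of 31053 genes counted. The 9 genes were taken by name: Dmd, Utrn, Dag1, Sgcb, Sgcd, Sgce, Sspn, Sntb2 and Dtna. FAPs are mesenchymal cells of the muscle interstitium that can give rise to adipocytes and fibroblasts. The study sorted them by the level of the surface protein SCA-1 into SCA1-High-FAPs and SCA1-Low-FAPs, grew each cell state for 5 days in growth medium with serum and sequenced the 3′ ends of its mRNAs in 4 replicates. All 8 samples came from hind limb muscles of mdx mice (strain C57BL/10ScSn-Dmdmdx/J) aged 45 days, so that every sample, in either state, carries the dystrophin mutation, and no wild type sample is part of the comparison. The methods of the study define biological replicates as primary cells from different mice. Before the SCA-1 sort, cells with the leucocyte antigen CD45 or the endothelial antigen CD31 were removed with magnetic beads, and cells with Integrin alpha-7, a mark of satellite cells, were gated out. Whether equal replicate numbers in both states mark the same mouse is not given in the sources used here. Each sample holds bulk RNA, in which fewer expressing cells and less RNA per cell cannot be told apart.

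The complex links the cytoskeleton of a cell to the extracellular matrix. Dystrophin, or its close relative utrophin, binds actin on the inside and the membrane protein dystroglycan, whose outer subunit carries sugar chains that bind laminin. The sarcoglycans and sarcospan stabilise dystroglycan in the membrane, while the syntrophins and dystrobrevins bind dystrophin or utrophin from the cytoplasm and bring signalling proteins to them. In the mdx mouse a premature stop codon lies in the upstream portion of the full-length Dmd mRNA. Several shorter dystrophins start from promoters inside the gene, and the shortest common form, Dp71, is made in many cell types outside muscle fibres and starts downstream of that stop codon.

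Dmd (ENSMUSG00000045103) spans chrX:82948870-85206141 on the plus strand of GRCm38. The annotation gives it 3 protein-coding transcripts. Dmd-203 is the full-length form, with 79 exons and 3678 codons. Dmd-201, with 18 exons and 617 codons, begins 2099.5 kb further downstream, and 16 of its exons are identical to exons of Dmd-203. Dmd-202 begins at the same base and has 17 exons and 604 codons. The full-length form and Dmd-201 end within 1102 bases of each other in a shared last exon, and Dmd-202 ends 3643 bases before the full-length form. Reads were taken at the 3′ end and counted per gene, so the counts given for Dmd do not separate the full-length form from the short ones and do not show the mutation itself.

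**Figure D1:**
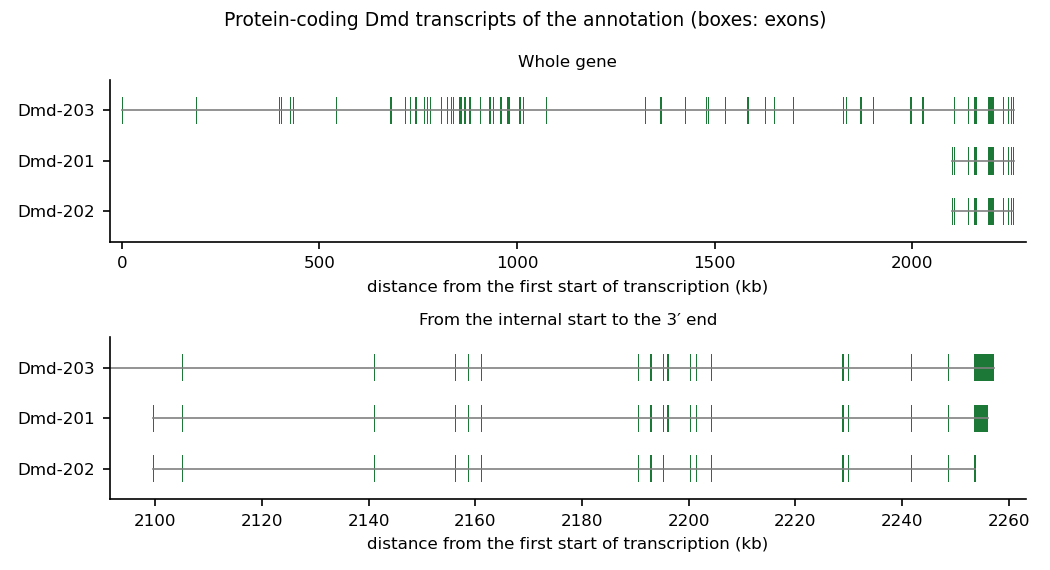
Exons (green boxes) of the 3 protein-coding Dmd transcripts against the distance in kb from the first start of transcription, for the whole gene (top) and from the internal start to the 3′ end (bottom). Dmd-201 and Dmd-202 start 2099.5 kb into the gene and share their 3′ exons with the full-length Dmd-203.

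The 250 bases before 2 annotated starts of Dmd are shown because the counts cannot tell which of these starts was used. A window was found in the table for 6 of the 9 genes. Those of Dmd are RefSeq sequences of GRCm38.p6 on the plus strand, at chrX:82948620-82948869 for the first start and chrX:85048045-85048294 for an internal start that lies 2099.4 kb downstream of it and 118 bases before the annotated start of Dmd-201. Capitals mark the CArG box, the binding motif of serum response factor, in the first and the GC box (GGGCGG on either strand, the motif of Sp1-type factors) in the second.
Dmd first start: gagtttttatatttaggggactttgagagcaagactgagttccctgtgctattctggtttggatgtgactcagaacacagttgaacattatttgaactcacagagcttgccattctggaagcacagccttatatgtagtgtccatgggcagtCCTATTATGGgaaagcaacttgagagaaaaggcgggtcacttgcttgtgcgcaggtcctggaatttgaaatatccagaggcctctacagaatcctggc
Dmd internal start: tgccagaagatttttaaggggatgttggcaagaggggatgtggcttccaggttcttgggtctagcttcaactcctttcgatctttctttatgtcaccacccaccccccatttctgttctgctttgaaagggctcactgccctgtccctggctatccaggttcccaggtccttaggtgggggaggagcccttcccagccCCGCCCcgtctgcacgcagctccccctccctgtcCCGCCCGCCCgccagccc
The first sequence holds 1 CArG box, 98 bases before the start, and E-boxes (CANNTG, the motif of MyoD and other basic helix-loop-helix factors) 173 and 61 bases before it, with a GC content of 45.2%. The internal one holds neither of these motifs and has 3 GC boxes, the last pair overlapping by 2 bases, with a GC content of 60.0%. Among all 32851 windows of this length in the table, 1.47% hold a CArG box, 66.2% an E-box and 32.7% a GC box, and the median GC content is 52.4%. These matches describe the letters only, and no sample measured binding or the start that was used.

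Depth was modest. Between 1880561 and 3985656 reads were assigned to genes per sample, so that 3 counts correspond to 0.753 to 1.60 counts per 1000000 assigned reads (CPM). Of 31053 genes, 15873 had a count and 10181 passed the count filter and were tested with edgeR's quasi-likelihood test. A gene was called at a Benjamini-Hochberg adjusted p below 0.05 and an absolute log2 fold change above 0.5. By this rule 782 genes, or 7.68% of those tested, were called, of which 4.36% of all tested were lower and 3.32% higher in SCA1-Low-FAPs. Log2 fold changes are SCA1-Low-FAPs over SCA1-High-FAPs throughout. CPM were computed with TMM-scaled library sizes and are not divided by gene length, since each mRNA gives tags at its 3′ end only. The FAP label was checked against 12 markers, of which 11 were detected and Dpp4 was listed at 0, with a summed level of 9757 to 12840 CPM in SCA1-High-FAPs against 8434 to 11840 CPM in SCA1-Low-FAPs. Col1a1 made up most of this sum, at 5058 to 8882 CPM per sample, so the sum says little of the other markers. Pi16 had 13 counts in all and Cd55 had 109. Of the 9 markers tested, Dcn was called lower and Thy1 and Ly6a higher in SCA1-Low-FAPs. Ly6a, which encodes the SCA-1 used for the sort, stood at 492 to 919 CPM in SCA1-High-FAPs against 1014 to 1156 CPM in SCA1-Low-FAPs after culture, with a log2 fold change of 0.61 ± 0.17 (SE, edgeR adjusted p = 0.0341), opposite to the direction of the sort. That call was lost in 7 of the 8 fits that left out 1 sample. The names SCA1-High-FAPs and SCA1-Low-FAPs thus refer to the sort and not to the mRNA level after culture.

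Across the 9 genes, 7 passed the count filter and 1 was called, Sspn, lower in SCA1-Low-FAPs, where 4.36% of all genes tested were called lower. Dmd and Sgcd had too few counts in too many samples to pass it and were tested in a fit with no filter beyond 1 count, where 1052 of 15873 genes, or 6.63%, were called, Dmd among them and higher in SCA1-Low-FAPs. Among the 7 that passed, 6 had a negative fold change and the median log2 fold change of the 7 was -0.38, beside a median of 0.000291 over all genes tested, of which 5094 were positive and 5087 negative. Dmd (3.28) and Sgcd (0.19), which are not in this tally, were positive in the fit with no filter. Before adjustment, 3 of the 7 had a p below 0.05, as did 2164 of the 10181 genes. With 7 genes of which 1 was called, the share of called genes cannot be set apart from that of all genes.

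**Figure D2:**
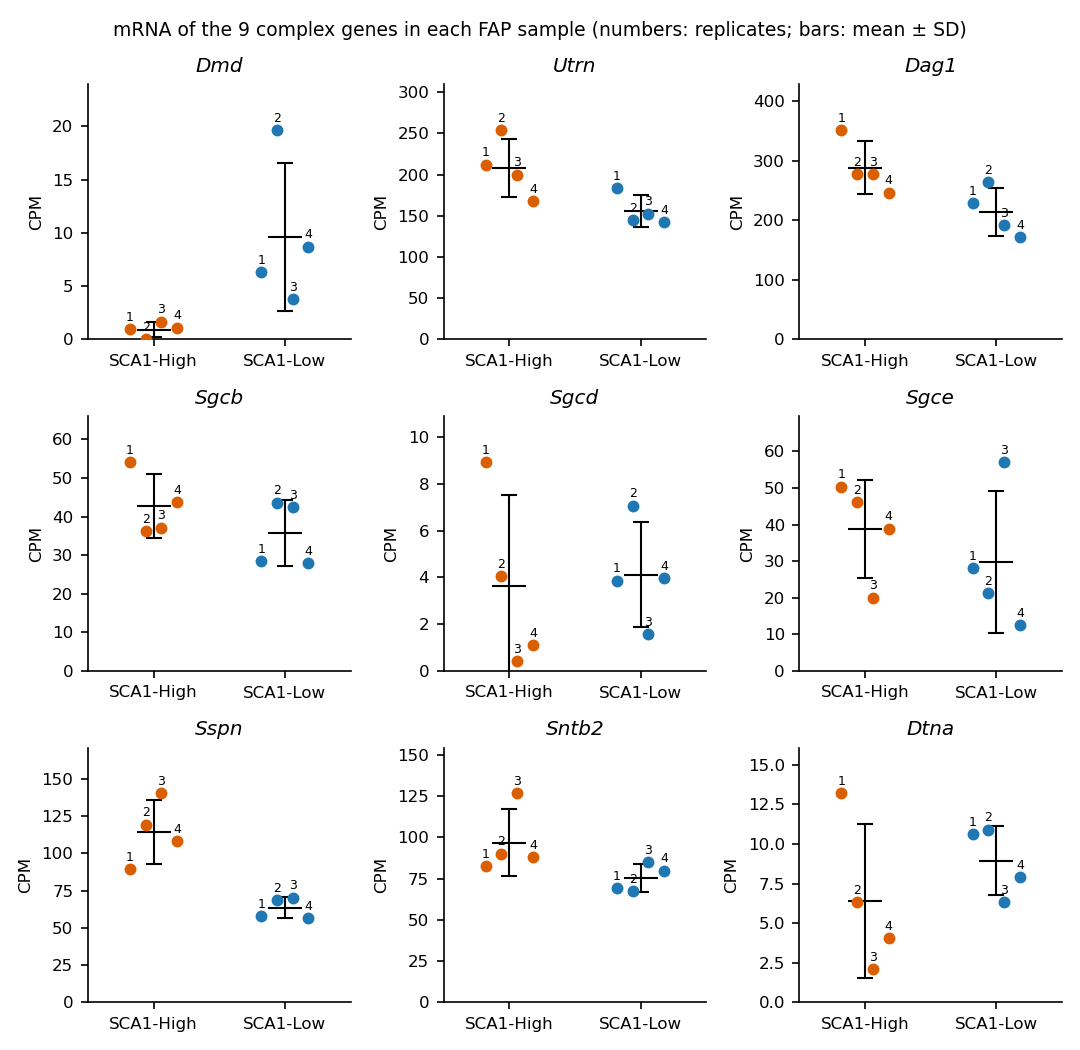
CPM of the 9 complex genes in each sample of SCA1-High-FAPs (orange) and SCA1-Low-FAPs (blue), with replicate numbers, and bars for the mean ± SD of 4 replicates (clipped at 0 for Sgcd). The states do not overlap for Dmd and Sspn, and overlap for the other 7 genes. Over all genes, the states do not overlap in 10.2% with no filter and in 14.1% of those that passed the filter.

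Among the linkers, dystrophin mRNA was scarce in both states and more abundant in SCA1-Low-FAPs. SCA1-High-FAPs held 2, 0, 4 and 3 Dmd counts in replicates 1 to 4, or 0.942, 0, 1.67 and 1.10 CPM. SCA1-Low-FAPs held 13, 36, 12 and 33 counts, or 6.28, 19.6, 3.81 and 8.71 CPM. Every SCA1-Low-FAPs sample was thus above every SCA1-High-FAPs sample, with the top value in replicate 2. The CPM of the states did not overlap in 10.2% of the 15873 genes of the fit with no filter, to which Dmd belongs, and in 14.1% of the 10181 genes that passed the filter, to which it does not. Mean levels were 0.928 ± 0.693 CPM in SCA1-High-FAPs against 9.60 ± 6.96 CPM in SCA1-Low-FAPs (SD, n = 4 each).

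In the fit with no filter, the log2 fold change of Dmd was 3.28 ± 0.80 (SE), or 9.70-fold, with a 95% interval of 1.70 to 4.85 on the log2 scale and an edgeR adjusted p of 0.00201. Summed over the replicates, 9 Dmd counts in SCA1-High-FAPs stood against 94 in SCA1-Low-FAPs, a ratio of 8.92 per assigned read (exact 95% counting interval 4.50 to 20.1, which covers counting error only). DESeq2, which fits all genes with a count, gave a log2 fold change of 3.33 (adjusted p = 0.00153). Without replicate 2 of SCA1-Low-FAPs the log2 fold change was 2.71 and the edgeR adjusted p 0.0626, so that the call rests on that sample. Leaving out any other sample kept the call, with log2 fold changes up to 3.68.

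Dmd lies on the X chromosome, and the samples divide by sex-linked transcripts. Replicates 1 and 2 of both states had Y-linked counts and no Xist, the RNA of the inactive X chromosome, while replicates 3 and 4 of both states had Xist and no Y-linked counts. Within replicates 1 and 2, Dmd was at most 0.942 CPM in SCA1-High-FAPs and at least 6.28 CPM in SCA1-Low-FAPs. Within replicates 3 and 4, the corresponding values were 1.67 and 3.81 CPM. With this division as a term, chosen after the data were seen, the log2 fold change without filter was 3.22 (edgeR adjusted p = 0.00121).

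Markers of other cell types were examined beside this difference. Of 14 myogenic markers, 7 were detected, at a summed level of 6.23 to 9.89 CPM in SCA1-High-FAPs against 10.5 to 30.5 CPM in SCA1-Low-FAPs. The defining genes Pax7, Myf5, Myod1, Myog, Ckm, Myh3 and Mymk were at 0 in every sample. Among those detected, only Acta1 had states that did not overlap, at 0.4175 to 2.825 CPM against 5.392 to 11.12 CPM. Acta1 was called with DESeq2 (adjusted p = 0.0278) and not with edgeR (adjusted p = 0.0547). The states overlapped for the other myogenic markers detected, of which Des alone was lower on average in SCA1-Low-FAPs (mean 0.9667 against 0.7466 CPM). The separation of the sums thus does not show a rise of the whole list. All 8 mural cell markers, those of smooth muscle and pericytes, were detected, with sums of 72.2 to 121 CPM in the first state and 151 to 219 CPM in the second. Of the 4 mural markers tested, Cspg4, Myh11 and Cnn1 were called higher and Notch3 lower in SCA1-Low-FAPs. Cnn1 was the largest part of the sums, at 38.0 to 94.9 CPM against 121.5 to 164.5 CPM. Among the markers not tested, Rgs5 (mean 3.28 against 1.91 CPM), Mcam (5.58 against 2.47) and Abcc9 (5.73 against 0.861) were lower in SCA1-Low-FAPs. Kcnj8 (0.367 against 0.725) was higher, so the list does not move in 1 direction. The Schwann cell markers, 5 of 5 detected, summed to 16.5 to 55.1 CPM in SCA1-High-FAPs against 5.45 to 10.3 CPM in SCA1-Low-FAPs. Endothelial markers were detected for 5 of 8 genes, with Emcn, Tie1 and Cldn5 at 0, and stayed at or below 7.39 CPM in all samples. Leucocyte markers, 4 of 8 detected with Itgam, Adgre1, Cd3e and Cd79a at 0, summed to 25.3 to 48.0 CPM in SCA1-High-FAPs against 12.5 to 19.4 CPM in SCA1-Low-FAPs. Lyz2, at 19.9 to 37.2 CPM against 6.28 to 15.2 CPM, was called lower in the latter. Cd68 went the same way (mean 2.88 against 0.477 CPM), Csf1r went the other way (3.32 against 5.48 CPM), and Ptprc had 1 count in all. Tendon markers, 6 of 6 detected, summed to 396 to 676 CPM in the first state and 543 to 948 CPM in the second, with no gene called among the 3 that passed the count filter. These sums were mostly Fmod and Thbs4, while Tnmd stood at 15.03 to 46.1 CPM in the first state against 2.90 to 12.4 CPM in the second, opposite to the sum, and Scx was at 0 in all SCA1-High-FAPs samples and at 0.792 to 8.22 CPM in SCA1-Low-FAPs. Replicate 2 of SCA1-Low-FAPs, the sample with the most Dmd, also held the top myogenic sum (30.5 CPM, with Itga7 at 9.80 CPM), 12 of the 17 Pecam1 counts and the top Myh11 level (39.75 CPM). The other endothelial markers detected, Cdh5, Kdr, Tek and Vwf, were at 0 in that sample. The top Cspg4 (32.5 CPM) and Cnn1 (164.5 CPM) levels were in replicate 4 of SCA1-Low-FAPs. The fit with no filter, in which Dmd was called, called 6.63% of all its genes. In it Scx (log2 fold change 6.03, edgeR adjusted p = 0.0223), Fmod (0.54, 0.0327), Cspg4, Myh11 and Cnn1 were called higher in SCA1-Low-FAPs. Tnmd (-1.53, 0.00612), Ngfr (-4.26, 8.78e-05) and Lyz2 were called lower, while Notch3 and the myogenic and endothelial markers were not called. Whether other cell types have a part in the Dmd difference was not tested.

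Utrophin, the widely expressed relative of dystrophin that can take its place in the complex, was read at 212, 254, 200.0 and 168 CPM in SCA1-High-FAPs against 184, 145, 153 and 142 CPM in SCA1-Low-FAPs. Replicate 2 of SCA1-High-FAPs was highest, and replicate 1 of SCA1-Low-FAPs lay above replicate 4 of SCA1-High-FAPs, so the states overlap. Utrn lies at chr10:12382188-12869365 on the minus strand. The means were 208 ± 35.4 and 156 ± 19.1 CPM (SD, n = 4). Utrn had a log2 fold change of -0.42 ± 0.16 (SE), with a 95% interval of -0.76 to -0.08, and missed the threshold (edgeR adjusted p = 0.126).

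The balance of both linkers was taken within each sample. The log2 ratio of Utrn to Dmd counts, with 0.5 added to each, was 7.49, 10.13, 6.74 and 7.03 in SCA1-High-FAPs against 4.82, 2.87, 5.27 and 4.01 in SCA1-Low-FAPs. All 4 ratios of SCA1-Low-FAPs lay below those of SCA1-High-FAPs, with means of 4.24 ± 1.05 and 7.85 ± 1.55 (SD, n = 4), a difference of -3.61. Over the 8 samples Utrn spanned 142 to 254 CPM and Dmd 0 to 19.6 CPM. The separation of the ratio and its p thus follow mostly from the Dmd values given above and are no separate result. The exact two-sided permutation test over 70 assignments gave p = 0.0286, the smallest it can give with 4 against 4, and 0.0857 after adjustment over the 3 ratios computed, which misses the threshold. Since Dmd was at 0 to 4 counts in SCA1-High-FAPs, the size of this difference depends on the value added and, at 0 Dmd counts, on the depth of the sample, and with 5 added to each count it was -2.16. Utrn counts exceeded Dmd counts in all 8 samples, a comparison of 3′ tags that leaves out length.

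Dystroglycan is the laminin receptor at the centre of the complex, and a single precursor encoded by Dag1 (chr9:108204634-108263958, minus strand) gives both its subunits. Dag1 stood at 351, 278, 277 and 246 CPM in SCA1-High-FAPs against 229, 264, 191 and 172 CPM in SCA1-Low-FAPs. The states overlap through replicate 2 of SCA1-Low-FAPs and replicate 4 of SCA1-High-FAPs. The mean of SCA1-High-FAPs was 288 ± 44.4 CPM and that of SCA1-Low-FAPs 214 ± 41.0 CPM (SD, n = 4). Dag1 had a log2 fold change of -0.43 ± 0.17 (SE, 95% interval -0.78 to -0.08), which missed the threshold (edgeR adjusted p = 0.127).

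The sarcoglycans are membrane proteins that assemble with dystroglycan and are lost in several limb-girdle muscular dystrophies. The 3 of the 9 genes in this class are Sgcb, Sgcd and Sgce. Sgcb (chr5:73632749-73647790, minus strand), for beta-sarcoglycan, was at 54.1, 36.2, 37.2 and 43.6 CPM in SCA1-High-FAPs against 28.5, 43.6, 42.5 and 28.0 CPM in SCA1-Low-FAPs. These ranges overlap, and the log2 fold change was -0.27 ± 0.24 (SE, 95% interval -0.78 to 0.25, edgeR adjusted p = 0.588). Sgce (chr6:4674350-4747207, minus strand), for epsilon-sarcoglycan, which takes the place of alpha-sarcoglycan outside striated muscle, was at 50.4, 46.1, 20.0 and 38.9 CPM against 28.0, 21.2, 57.1 and 12.4 CPM. The highest of its 8 values and the lowest both belonged to SCA1-Low-FAPs, in replicates 3 and 4, and the log2 fold change was -0.38 ± 0.41 (SE, 95% interval -1.27 to 0.51, edgeR adjusted p = 0.668).

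Sgcd (chr11:46896253-47988969, minus strand), for delta-sarcoglycan, had 19, 9, 1 and 3 counts in SCA1-High-FAPs against 8, 13, 5 and 15 in SCA1-Low-FAPs, or 0.418 to 8.95 and 1.59 to 7.08 CPM. In the fit with no filter its log2 fold change was 0.19 ± 0.82 (SE, 95% interval -1.43 to 1.82, edgeR adjusted p = 0.929), and it changed sign when replicate 3 or 4 of SCA1-High-FAPs or replicate 2 of SCA1-Low-FAPs was left out (-0.18, -0.13 and -0.17). At this depth a difference of severalfold in Sgcd could go undetected. The log2 ratio of Sgce to the sum of Sgcb and Sgcd was -0.31 ± 0.45 in SCA1-High-FAPs against -0.61 ± 0.83 in SCA1-Low-FAPs (SD, n = 4; exact permutation p = 0.543, 0.8 after adjustment over 3 ratios). Sgca, for the alpha form of striated muscle, had 0 counts in all 8 samples, as did Sgcz.

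Sarcospan, a small protein with several membrane spans that binds the sarcoglycans, was encoded by the single gene among the 7 that passed the filter to be called. Sspn (ENSMUSG00000030255, chr6:145931641-145965223, plus strand) was at 89.5, 119, 140 and 108 CPM in SCA1-High-FAPs, from 190 to 336 counts. Its 120 to 222 counts in the other state gave 58.0, 68.6, 70.4 and 56.8 CPM. The highest SCA1-Low-FAPs sample lay below the lowest SCA1-High-FAPs sample, beside 14.1% of all genes tested whose states did not overlap. The means were 63.5 ± 7.06 CPM in SCA1-Low-FAPs and 114 ± 21.3 CPM in SCA1-High-FAPs (SD, n = 4). Sspn had a log2 fold change of -0.85 ± 0.18 (SE, 95% interval -1.23 to -0.47, edgeR adjusted p = 0.00763), and was 1.80-fold higher in SCA1-High-FAPs. The call held in each of the 8 fits that left out 1 sample, with log2 fold changes of -0.94 to -0.74 and adjusted p of 0.00756 to 0.0372. The antisense gene Sspnos overlaps Sspn and had 0 counts in these files.

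The syntrophins are adaptors that bind dystrophin, utrophin and the dystrobrevins. Sntb2 (chr8:106935750-107019714, plus strand), for the beta-2 form found in many tissues, was at 82.4, 90.0, 127 and 88.0 CPM in SCA1-High-FAPs against 69.1, 67.5, 85.0 and 79.7 CPM in SCA1-Low-FAPs. Only replicate 1 of SCA1-High-FAPs lay within the range of SCA1-Low-FAPs, and the log2 fold change of -0.36 ± 0.18 (SE, 95% interval -0.74 to 0.03) missed the threshold (edgeR adjusted p = 0.278). Relative to Dag1 in the same sample, the log2 ratio of Sntb2 was -1.58 ± 0.40 in SCA1-High-FAPs against -1.49 ± 0.42 in SCA1-Low-FAPs (SD, n = 4; exact permutation p = 0.8, adjusted 0.8), and the sign of this difference changed without replicate 1 of SCA1-High-FAPs or replicate 3 or 4 of SCA1-Low-FAPs. Among other syntrophins, Sntb1 had 62 counts in all and was not called in the fit with no filter (log2 fold change -1.66, edgeR adjusted p = 0.335), Sntg2 had 10 counts and Sntg1 had none.

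The dystrobrevins are relatives of dystrophin that bind it through a coiled coil and carry syntrophins of their own. Dtna, for alpha-dystrobrevin, had 28, 14, 5 and 11 counts in SCA1-High-FAPs against 22, 20, 20 and 30 in SCA1-Low-FAPs. In CPM these were 13.2, 6.33, 2.09 and 4.03 against 10.6, 10.9, 6.34 and 7.92, so that replicate 1 of SCA1-High-FAPs was the highest of the 8 and the other 3 of its state lay at or below the lowest of SCA1-Low-FAPs, with 6.33 next to 6.34. The log2 fold change was 0.48 ± 0.55 (SE, 95% interval -0.68 to 1.64, edgeR adjusted p = 0.684). Dtnb, for beta-dystrobrevin, gave 0.62 ± 0.58 (SE, 95% interval -0.61 to 1.84, edgeR adjusted p = 0.603).

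**Figure D3:**
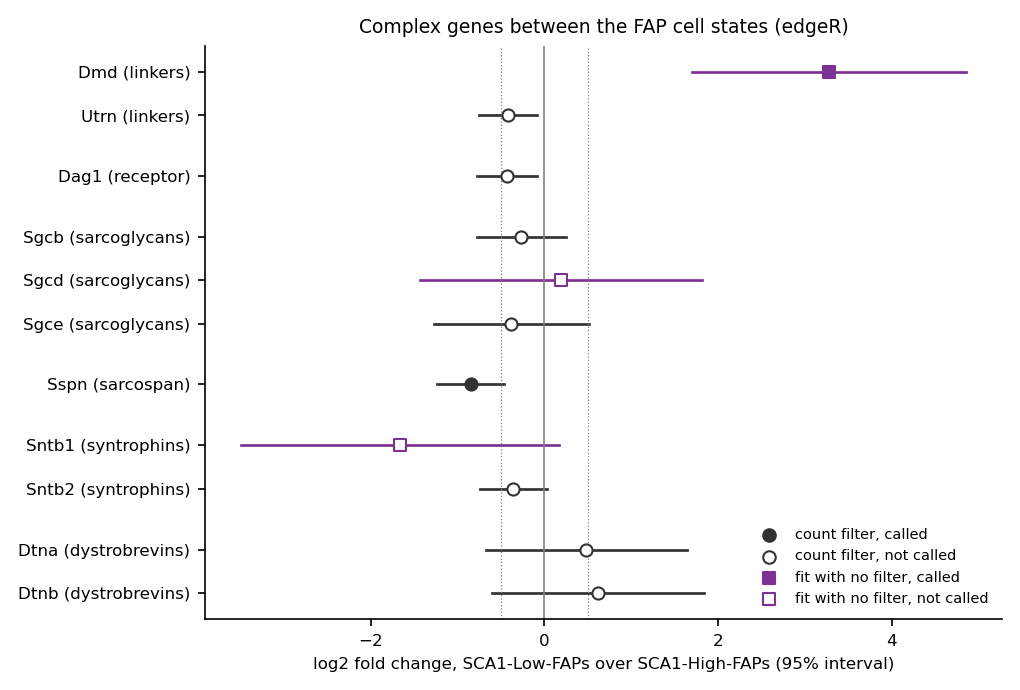
Log2 fold changes with 95% intervals of 11 genes of the complex ordered by role, from the edgeR fit with the count filter (black circles) or with no filter (purple squares); filled symbols are called and dotted lines mark 0.5 in either direction. Dmd (3.28) was called above 0 and Sspn (-0.85) below 0.

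Over the complex list of 15 genes, 8 were tested, and 1 was called, Sspn, beside 7.68% of all genes tested. The median log2 fold change of the 8 was -0.37, and 3 genes of the 15 had no count. The neighbouring steps of the pathway were described with 3 further lists. Of 18 genes that put sugar chains on dystroglycan, 17 were tested, with a median of -0.18, and 1 was called, again beside 7.68% of all genes. This was Gmppb, which makes the GDP-mannose used for these chains, at 60.4 ± 16.3 CPM in SCA1-High-FAPs against 126 ± 28.8 CPM in SCA1-Low-FAPs (SD, n = 4; log2 fold change 1.07 ± 0.21 SE, edgeR adjusted p = 0.00494).

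Of 13 genes for extracellular ligands of dystroglycan and related matrix partners, 10 were tested, with a median of -0.15, and 1 was called, beside the same 7.68%. Dcn, for the matrix proteoglycan decorin, was at 590.2 ± 308 CPM in SCA1-High-FAPs against 139.7 ± 50.8 CPM in SCA1-Low-FAPs (SD, n = 4; log2 fold change -2.08 ± 0.39 SE, edgeR adjusted p = 0.0167). This call was lost without replicate 2 (adjusted p = 0.0504) or replicate 4 (adjusted p = 0.0537) of SCA1-Low-FAPs. Dcn is also on the list of FAP markers. Of 17 cytoplasmic partners, 12 were tested, with a median of 0.155, and 2 were called higher in SCA1-Low-FAPs, beside 3.32% of all genes called higher. With 1 or 2 calls a list, these shares do not set any list apart from all genes. The 2 genes were Actb, for the cytoskeletal beta-actin, with a log2 fold change of 0.88 ± 0.18 (SE, edgeR adjusted p = 0.00597), and Plec, for plectin, which ties intermediate filaments to the complex, with 0.83 ± 0.18 (SE, edgeR adjusted p = 0.00814).

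**Figure D4:**
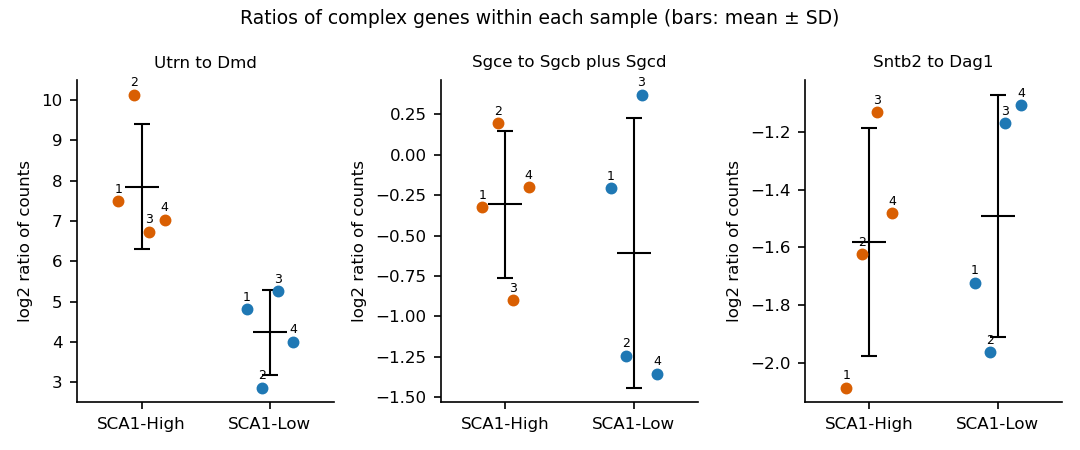
Log2 ratios of counts within each sample for Utrn to Dmd, Sgce to Sgcb plus Sgcd, and Sntb2 to Dag1, with replicate numbers and bars for the mean ± SD of 4 replicates per state. The Utrn to Dmd ratios of the states do not overlap, at 6.74 to 10.13 in SCA1-High-FAPs against 2.87 to 5.27 in SCA1-Low-FAPs, and the other ratios overlap. The separation of the Utrn to Dmd ratios follows mostly from the Dmd counts.

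The tested genes whose log2 CPM followed each of 3 complex genes most closely over the 8 samples were listed by Pearson's r. For Dmd these were Pgp (r = 0.965), Cisd2 (r = 0.957) and 2200002D01Rik (r = 0.955), of which 2200002D01Rik (log2 fold change 3.45) and Pgp (0.69) were called higher in SCA1-Low-FAPs and Cisd2 (0.31) was not called. For Utrn they were Tchp (r = 0.950), Znfx1 (r = 0.946) and Hoxa5 (r = 0.941), none of which was called. For Sspn they were Ypel3 (r = 0.990), Runx1 (r = 0.983) and Appl2 (r = 0.977), all 3 called lower in SCA1-Low-FAPs. These are the highest values among 10181 genes over 8 samples that share libraries, depth and a difference between states.

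The values of Dmd, Sspn, Utrn and Dag1 were recomputed with another tool, scaling, filter or term and with each sample left out. Their signs did not change in any of them. Utrn and Dag1 were not called in any, with adjusted p of 0.0814 to 0.348 for Utrn and 0.0705 to 0.320 for Dag1.

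**Figure D5:**
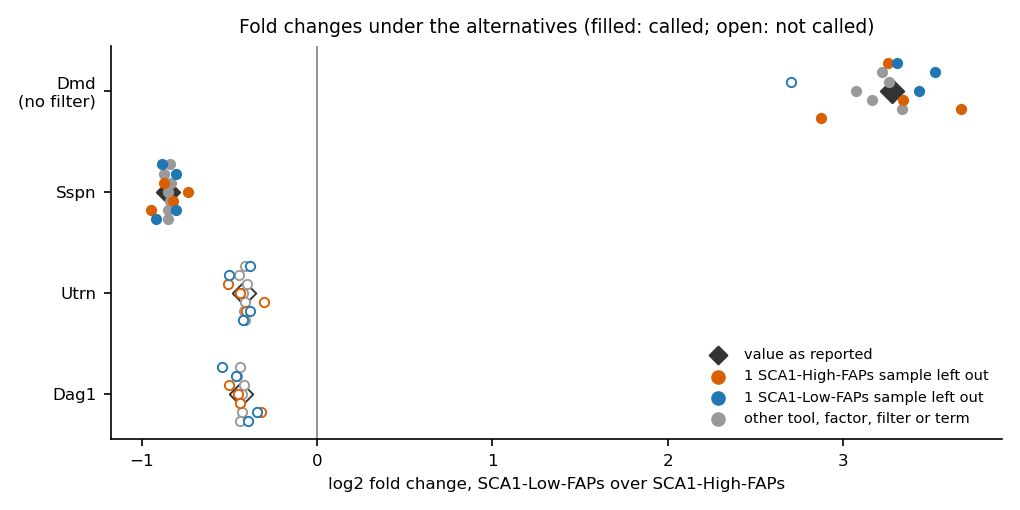
Log2 fold changes of 4 complex genes as reported (diamonds), with 1 sample of SCA1-High-FAPs (orange) or SCA1-Low-FAPs (blue) left out, or with another tool, scaling, filter or term (grey), filled where called. Sspn was called throughout, Utrn and Dag1 in no setting, and Dmd in all but the fit without replicate 2 of SCA1-Low-FAPs.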

How the data were processed

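RNA of 4 SCA1-High-FAPs and 4 SCA1-Low-FAPs samples was read with 3′ mRNA libraries (QuantSeq FWD). The authors trimmed the reads, aligned them with STAR to the mouse genome (mm10), counted uniquely aligned reads per Ensembl gene with htseq-count, and deposited raw counts per gene; the strand setting is not given in the sources used here. Rows that name no gene were left out of the library sizes, and reads in no annotated gene came to 13.3% to 16.4% of a sample. Of 31053 gene identifiers, 30934 were named from a table of symbols.

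Counts were fitted with edgeR 4.0.16 in R 4.3.3 (filterByExpr with a minimum of 10 counts and a total of 15, TMM scaling, robust quasi-likelihood test, SCA1-Low-FAPs against SCA1-High-FAPs, Benjamini-Hochberg adjustment over all genes tested). The SE was taken from the fold change and its F statistic. DESeq2 1.42.0 was an alternative. The fits were tested on simulated data. Log2 ratios were tested by exact two-sided permutation. Genes named are the 9 genes, others of the complex, called genes of the 3 other lists, and the 3 genes most like Dmd, Utrn and Sspn. Some genes of the lists are not reported here. The members, lists and tests were chosen with earlier results of these data known. Alternatives were another tool, scaling factor, filter, threshold or value added, a replicate block, and each sample left out. Annotation came from GENCODE for GRCm38, promoter sequences from RefSeq.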

Additional observations from a re-analysis of the deposited data

How the results depend on the processing

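Of the 9 genes, 1 was called as reported, and 2 (Dmd added) with DESeq2, with DESeq2 and the replicate block, and with no filter beyond 1 count; 1 to 2 were called when each sample was left out, where Dmd, with at most 4 counts in any SCA1-High-FAPs sample, passed the filter only through its SCA1-Low-FAPs counts, so that the count of 2 adds nothing to its own value. Of the complex list, likewise 1 gene was called as reported, 2 under the same 3 alternatives, and 1 to 2 with each sample left out. Of the ligands, 1 was called, 2 with DESeq2 and with at least 10 counts in every sample, 0 at an adjusted p below 0.01 (edgeR), where 4 of the 10 tested had an unadjusted p below 0.05, and 0 to 2 with each sample left out, with 0 without replicate 2 or 4 of SCA1-Low-FAPs and 2 without replicate 1 of SCA1-High-FAPs. The cause of the changes among the ligands was not tested. The Sntb2 to Dag1 difference ranged from -0.078 to 0.249 with each sample left out, and the log2 fold change of Sgcd from -0.18 to 1.12, at -0.18, -0.13 and -0.17 without replicate 3 or 4 of SCA1-High-FAPs or replicate 2 of SCA1-Low-FAPs.

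Whether equal replicate numbers mark the same mouse was not settled by the values. Deviations from the state mean correlated at -0.05 to 0.01 between same-numbered samples and at -0.28 to 0.25 between others. With 4 samples per state these correlations cannot decide it. Same-numbered samples matched in sex-linked transcripts, which holds for some other pairs too. In the fit with a replicate block, 697 genes were called in place of 782, Sspn stayed called (log2 fold change -0.84, edgeR adjusted p = 0.0137), Dmd stayed called with no filter (3.08, adjusted p = 0.0125), Ly6a did not (0.65, adjusted p = 0.0573), and the Utrn to Dmd difference kept its value of -3.61 with an exact p of 0.125, the smallest the block allows. Over all genes, 1065 were called with DESeq2, 1052 with no filter, 307 at an adjusted p below 0.01, and 410 to 1017 with each sample left out. Depth limits Dmd, Sgcd, Dtna and Sntb1, which had few counts.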
